A study of Homo sapiens with 32 samples.

Results

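Bone morphogenetic protein (BMP) signalling and its ID target genes were described in 2 human germ cell cancer lines through 10 genes, picked by symbol from the 61541 genes of the count table. They were the ligands BMP4 and BMP7, the receptor BMPR1A, the inhibitors BAMBI, NOG and SMAD6, and the target genes ID1, ID2, ID3 and ID4, and all 10 had counts. The lines were NTera2, which derives from an embryonal carcinoma and was grown in DMEM, and TCam-2, which derives from a seminoma and was grown in RPMI medium, so line and medium cannot be told apart. Serum was present in both media. Cells of each line received D-PBS vehicle, RANKL, OPG or denosumab for 48 h, and the series asked how RANKL and its inhibitors act on these lines. RANKL activates its receptor RANK, while the decoy receptor OPG and the antibody denosumab bind RANKL. RANKL and OPG were given at 1 µg/ml. The denosumab groups rest on their sample labels, because the protocol repeats RANKL where the antibody would be and gives no dose for it. There were 4 libraries in each of 8 groups, from separate experiments, 1 at each passage of the line. The passages were 27, 29, 30 and 31 in NTera2 and 118, 120, 121 and 122 in TCam-2, for replicates 1 to 4. Each line is 1 cell line, so a difference between them is a difference between 2 lines and not between tumour types.

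BMP ligands bind pairs of type I and type II receptors, which phosphorylate SMAD1, SMAD5 and SMAD9. These enter the nucleus with SMAD4 and switch on target genes, of which the ID genes are the best known. ID proteins lack a DNA-binding region and hold E proteins away from E boxes, the CANNTG motifs that E proteins bind. The pathway induces its own inhibitors: BAMBI is a decoy receptor without a kinase, SMAD6 blocks the SMADs inside the cell, and noggin, the product of NOG, captures the ligand outside it. In the embryo BMP4 is needed to specify primordial germ cells, from which germ cell tumours are held to arise.

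GGCGCC and CAGAC, letters that stand in known SMAD-binding elements, were searched on both strands in the 250 bases before each RefSeq start of a gene. RefSeq promoters of GRCh38.p14 were found for 8 of the 10 genes, and BMP7 and NOG were not matched. The windows of the 4 ID genes and BAMBI are shown because these are the target genes and the inhibitor whose levels between passages of TCam-2 are described further on. Capitals mark GGCGCC and CAGAC, the latter written GTCTG where it lies on the other strand. The ID1 window is chr20:31605039-31605288 on the plus strand, ID2 chr2:8681806-8682055 plus, ID3 chr1:23559502-23559751 minus, ID4 chr6:19837120-19837369 plus and BAMBI chr10:28677271-28677520 plus. The ID2 window lies inside the counted ID2 gene (8678845 to 8684453), so its RefSeq start is not the start of the counted gene. The same holds for the BMP4 windows.
ID1: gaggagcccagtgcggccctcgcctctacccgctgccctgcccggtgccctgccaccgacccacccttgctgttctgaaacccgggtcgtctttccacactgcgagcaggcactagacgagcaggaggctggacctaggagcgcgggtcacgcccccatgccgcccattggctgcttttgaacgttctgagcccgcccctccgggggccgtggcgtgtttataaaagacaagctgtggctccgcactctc
ID2: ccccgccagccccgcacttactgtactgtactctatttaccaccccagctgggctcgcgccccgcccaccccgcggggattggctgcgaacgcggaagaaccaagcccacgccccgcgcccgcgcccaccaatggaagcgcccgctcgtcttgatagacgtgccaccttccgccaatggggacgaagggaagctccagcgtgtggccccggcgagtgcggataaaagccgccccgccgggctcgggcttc
ID3: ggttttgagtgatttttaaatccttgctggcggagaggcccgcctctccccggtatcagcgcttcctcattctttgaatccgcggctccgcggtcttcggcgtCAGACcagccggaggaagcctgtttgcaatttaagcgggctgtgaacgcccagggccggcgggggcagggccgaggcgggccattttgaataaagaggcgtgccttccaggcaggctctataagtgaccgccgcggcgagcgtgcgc
ID4: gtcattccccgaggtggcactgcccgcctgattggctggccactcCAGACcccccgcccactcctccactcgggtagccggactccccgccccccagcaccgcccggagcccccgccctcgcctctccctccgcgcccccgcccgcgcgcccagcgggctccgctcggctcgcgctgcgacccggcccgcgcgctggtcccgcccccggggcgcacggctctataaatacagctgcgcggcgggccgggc
BAMBI: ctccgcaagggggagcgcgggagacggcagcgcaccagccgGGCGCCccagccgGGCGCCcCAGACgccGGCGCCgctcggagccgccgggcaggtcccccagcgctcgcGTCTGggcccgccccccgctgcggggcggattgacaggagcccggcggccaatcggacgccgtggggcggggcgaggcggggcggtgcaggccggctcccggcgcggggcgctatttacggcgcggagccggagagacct
BAMBI carried 3 GGCGCC and 2 CAGAC in its window, and ID3 and ID4 carried 1 CAGAC each. ID1, ID2, BMPR1A and SMAD6 carried neither of these motifs within the 250 bases, and bases farther upstream were not searched. Of 35116 promoter windows of the same length, 16.38% held GGCGCC, 38% held CAGAC and 5.633% held both. BMP4, with 3 RefSeq starts, also carried 1 GGCGCC and 1 CAGAC at 1 of them and 1 CAGAC alone at another. The BAMBI window is 81.2% G and C, against 62.0% to 78.8% in the 4 ID windows. The E box CANNTG, searched on the same windows, was counted 1 time in ID2, in ID4 and in 1 BMP4 window and 2 times in BMPR1A. It was held by 61.82% of all windows. These matches are descriptions of the letters, with no binding measured.

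Total counts were 11385500 to 30499538 per library in NTera2 and 10585247 to 20257935 in TCam-2. RNA integrity numbers in the labels were at least 8.3 but for 2 RANKL libraries of TCam-2, replicate 2 with 6.1 and replicate 4 with 3.7, and 1 NTera2 vehicle library without a value. The labelled identities were met by the markers. The summed level of 4 embryonal carcinoma markers was 1254 to 1673 CPM (counts scaled to library size) in NTera2 and 74.0 to 91.8 in TCam-2, and that of 5 seminoma markers was 145 to 164 and 1857 to 2174. The 7 fibroblast markers summed to 62.6 to 78.6 CPM in NTera2 and 253 to 319 in TCam-2, where COL1A2 led with 283 CPM in vehicle libraries. Of 5 fibroblast markers tested there, COL1A2 and COL3A1 were higher in TCam-2 and 3 lower, among them COL1A1 (27.5 CPM in NTera2 and 7.69 in TCam-2 over 16 libraries each) and PDGFRB (36.9 and 3.41). Immune cell markers stayed at or below 1.25 CPM.

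Divided by gene length, ID1 was the highest of the 10 genes in both lines and ID3 followed it. In NTera2, the mean over 16 libraries was 52.5 ± 9.25 CPM per kb for ID1 (SD), 43.0 ± 5.80 for ID3 and 35.8 ± 2.31 for BAMBI, and neighbours in this order overlapped. ID2 stood apart below them at 21.2 ± 1.39 CPM per kb, and BMP7 below it at 9.96 ± 0.509. BMP4 (5.07 ± 0.603) and BMPR1A (4.29 ± 0.354) overlapped, as did the lowest genes, ID4 (2.03 ± 0.243), NOG (1.75 ± 0.511) and SMAD6 (1.49 ± 0.208). In TCam-2 the upper order was spread out. ID1 was at 323 ± 63.8 CPM per kb, ID3 at 127 ± 15.6 and BAMBI at 44.8 ± 3.57, each apart from the next. ID2 (20.3 ± 3.03), BMPR1A (14.5 ± 1.49) and ID4 (11.4 ± 1.07) overlapped with their neighbours. Far below lay BMP4 (1.92 ± 0.435), BMP7 (1.69 ± 0.304) and SMAD6 (1.25 ± 0.326), which overlapped, and NOG had 2 counts in all 16 libraries.

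**Figure D1:**
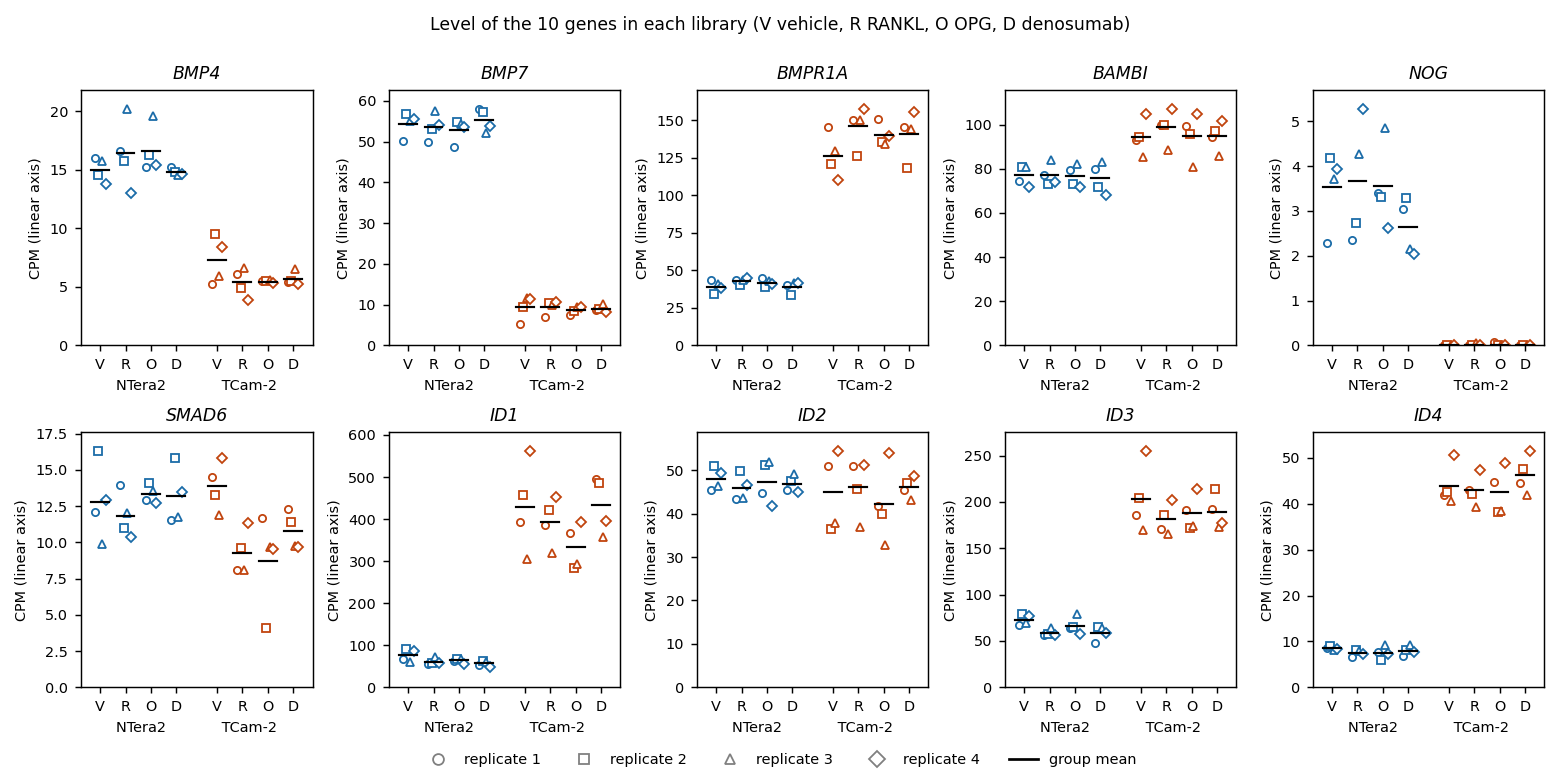
Level of each of the 10 genes in CPM (linear axes from 0) in every library, with the group mean as a bar and the replicate number as the symbol. The 16 TCam-2 libraries lie apart from the 16 NTera2 libraries for 7 genes and overlap them for BAMBI, SMAD6 and ID2. The share of all genes that lie apart over 16 libraries a line is not given here. Among vehicle libraries only, the lines did not overlap for 70.2% of all genes, so such separation is common between these lines.

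The first comparison was between the untreated lines. TCam-2 vehicle libraries had more ID1, ID3, ID4, BMPR1A and BAMBI than NTera2 vehicle libraries, less BMP4 and BMP7, and no count of NOG. ID1 was 5.60-fold higher, ID4 5.14-fold, BMPR1A 3.22-fold and ID3 2.78-fold. With edgeR's quasi-likelihood test, 8 of the 10 genes were called at an adjusted p under 0.05, 5 higher and 3 lower. That share is close to that of all genes, since 76.2% of the 16816 genes tested were called, 37.4% higher and 38.8% lower. The 4 libraries a line did not overlap for 8 of the 10 genes, against 70.2% of all genes. Both counts of 8 include NOG, which passed the filter on low counts through NTera2 only. In bulk RNA, fewer cells that express a gene and less RNA per cell cannot be told apart.

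Both ligands were lower in TCam-2. BMP7 (ENSG00000101144, hg38 chromosome 20, 57168753 to 57266641) measured 50.1, 56.8, 55.0 and 55.6 CPM in NTera2 vehicle libraries and 5.31, 9.53, 11.7 and 11.5 CPM in those of TCam-2. The lines lay far apart, with a log2 fold change of -2.52 (SE 0.173, adjusted p = 9.46e-10). BMP4 (ENSG00000125378, chromosome 14, 53949736 to 53958761) measured 15.96, 14.5, 15.7 and 13.8 CPM in NTera2 and 5.23, 9.53, 5.95 and 8.36 CPM in TCam-2. All TCam-2 libraries were below all NTera2 libraries, with a log2 fold change of -1.05 (SE 0.182, adjusted p = 6.02e-05). Per length, the ratio of BMP7 to BMP4 was 1.99 ± 0.237 over the 16 NTera2 libraries and 0.913 ± 0.242 over the 16 TCam-2 libraries. The ranges of this ratio, 1.58 to 2.37 and 0.571 to 1.55, did not overlap.

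BMPR1A (ENSG00000107779, chromosome 10, 86756601 to 86932825), a type I receptor for both ligands, went the other way. It measured 43.3, 34.2, 41.2 and 38.0 CPM in NTera2 vehicle libraries and 145, 121, 129 and 110 CPM in TCam-2. It differed by 1.69 on the log2 scale (SE 0.101, adjusted p = 1.63e-10), with every TCam-2 library above every NTera2 library.

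The inhibitors did not share a direction. NOG (ENSG00000183691, chromosome 17, 56593699 to 56595611) had 42, 66, 47 and 67 counts in the NTera2 vehicle libraries, or 2.28 to 4.19 CPM, and 0 counts in all 4 TCam-2 vehicle libraries. Taking 3 counts over the group as the most that 0 counts allow (0.0600 CPM), NOG was at least 58.0-fold lower in TCam-2 (adjusted p = 1.29e-07). It passed the filter on low counts through NTera2 only, so its call is not further evidence beyond these counts. BAMBI (ENSG00000095739, chromosome 10, 28677510 to 28682932) measured 74.5, 81.0, 80.9 and 71.7 CPM in NTera2 and 93.0, 94.3, 85.5 and 105 CPM in TCam-2. This difference was small, at 0.29 on the log2 scale (SE 0.0845, adjusted p = 0.00489). The vehicle groups of BAMBI did not overlap. Over the 16 libraries of each line the ranges did, with 68.0 to 84.1 CPM in NTera2 and 80.6 to 107 in TCam-2. SMAD6 (ENSG00000137834, chromosome 15, 66702236 to 66782849) measured 12.1, 16.3, 9.87 and 12.9 CPM in NTera2 and 14.5, 13.3, 11.9 and 15.8 CPM in TCam-2. The SMAD6 groups overlapped, and the log2 fold change of 0.11 (95% interval -0.20 to 0.42, adjusted p = 0.527) was not called.

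Of the 4 ID genes, 3 were higher in TCam-2. ID1 (ENSG00000125968, chromosome 20, 31605283 to 31606510) measured 66.8, 92.0, 61.3 and 86.8 CPM in NTera2 vehicle libraries and 393, 458, 306 and 562 CPM in TCam-2. Both groups varied widely among replicates yet stayed far apart, with a log2 fold change of 2.49 (SE 0.162, adjusted p = 5e-10). ID3 (ENSG00000117318, chromosome 1, 23557926 to 23559501) measured 67.4, 78.8, 69.9 and 76.4 CPM in NTera2 and 185, 204, 169 and 255 CPM in TCam-2. The 2 groups differed by 1.48 on the log2 scale (SE 0.109, adjusted p = 2.38e-09). ID4 (ENSG00000172201, chromosome 6, 19837370 to 19842197) measured 8.47, 9.08, 8.21 and 8.33 CPM in NTera2 and 41.9, 42.6, 40.7 and 50.5 CPM in TCam-2. ID4 was thus low and even in NTera2, and differed by 2.36 on the log2 scale (SE 0.116, adjusted p = 1.24e-11). ID2 (ENSG00000115738, chromosome 2, 8678845 to 8684453) measured 45.4, 50.9, 46.4 and 49.3 CPM in NTera2 and 50.9, 36.5, 38.0 and 54.4 CPM in TCam-2. These groups overlapped and ID2 was not called (log2 fold change -0.10, 95% interval -0.33 to 0.13, adjusted p = 0.466). Genes on the opposite strand overlap ID2 (ENSG00000235092, 4815 counts in all libraries against 22696 for ID2) and ID4 (LNC-LBCS, 555 against 12072). The strand setting of the counting is not given in the sources used here, so reads of these pairs are uncertain.

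The make-up of the ID transcripts therefore differed. Per length, the 4 ID genes summed to 119 ± 15.3 CPM per kb in NTera2 and 482 ± 79.9 in TCam-2 over 16 libraries each. ID1 made up 44.0 ± 2.53% of this sum in NTera2 and 66.7 ± 2.69% in TCam-2. ID3 made up 36.2 ± 1.84% and 26.7 ± 2.29%. ID2 made up 18.1 ± 1.74% in NTera2 and only 4.25 ± 0.538% in TCam-2, with nearly equal levels in both lines, while ID4 made up 1.72 ± 0.190% and 2.39 ± 0.260%.

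The same line comparison was made within each treatment, on libraries that shared only their passages with the vehicle libraries. ID1 differed by 2.37 to 2.90 on the log2 scale over the 4 comparisons, ID4 by 2.36 to 2.52, BMPR1A by 1.69 to 1.81, ID3 by 1.48 to 1.64 and BAMBI by 0.28 to 0.35. BMP7 differed by -2.64 to -2.50 and BMP4 by -1.62 to -1.05, and all 7 were called in each of the 4. Among all 16045 genes tested in the 4 comparisons, 33.5% were called higher and 34.2% lower each time. NOG was also called in each of the 4 comparisons, but it passed the filter on low counts through NTera2 only. It was at least 47.8-fold lower with denosumab, and the ratio of NTera2 to TCam-2 was 221 with RANKL (exact 95% counting interval 39.2 to 8743) and 196 with OPG (34.9 to 7784), where TCam-2 had 1 count each. ID2 was called in none of the 4, with values from -0.18 to 0.00. Called in all were 8 of 10 genes with RANKL (74.3% of all genes), 9 of 10 with OPG (76.2%) and 9 of 10 with denosumab (79.7%).

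**Figure D2:**
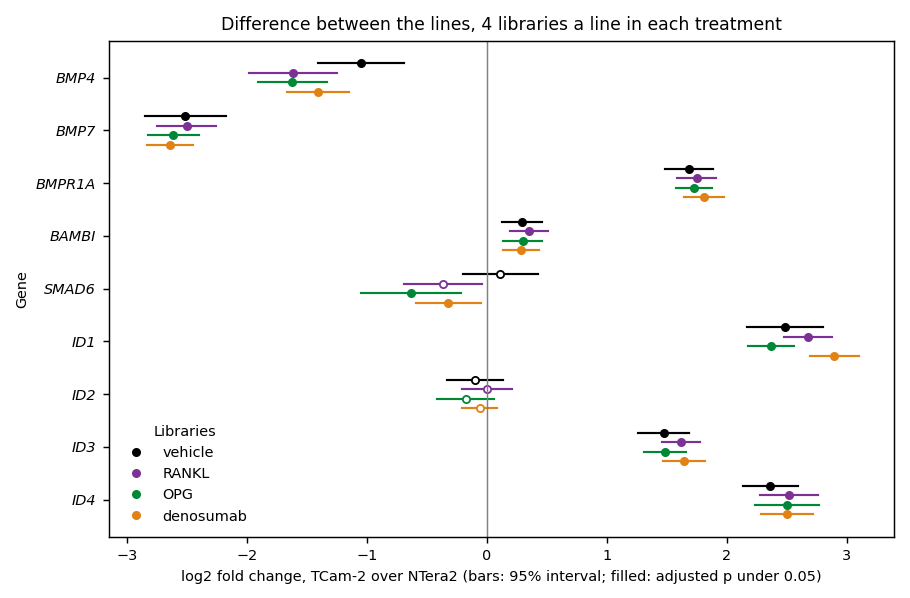
Log2 fold change of TCam-2 over NTera2 (x axis) for 9 genes in each treatment, 4 libraries a line, with 95% intervals and filled points for an adjusted p under 0.05. ID1, ID3, ID4, BMPR1A and BAMBI lie right of 0 and BMP4 and BMP7 left of it in all 4 treatments; NOG is left out because TCam-2 had 0 or 1 count.

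SMAD6 was the gene whose line difference was not stable. Its log2 fold change was 0.11 in vehicle, -0.37 with RANKL (SE 0.166, adjusted p = 0.0518), -0.64 with OPG (SE 0.212, adjusted p = 0.0108) and -0.32 with denosumab (SE 0.138, adjusted p = 0.038). With RANKL, SMAD6 was called without NTera2 replicate 2 (adjusted p = 0.0393) or 4 (0.0194) or TCam-2 replicate 4 (0.0196). Without both TCam-2 RANKL libraries of low RNA integrity it was -0.57 and called, and the other members called with RANKL kept their call. With denosumab, the call was lost without NTera2 replicate 2 (-0.21, adjusted p = 0.182) or 4 (0.0866) or TCam-2 replicate 3 (0.139) or 4 (0.139). With OPG, SMAD6 was at -0.40 without TCam-2 replicate 2 and still called (adjusted p = 0.0167). In OPG, ID2 was called without TCam-2 replicate 4 (log2 fold change -0.32, adjusted p = 0.00966).

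The wider pathway was compared through 58 further genes, of which 46 were tested in vehicle and 37 called, 20 higher and 17 lower in TCam-2. Their share called is near the 76.2% of all genes tested. Of the other ligands, 5 of 6 tested were called, 4 of them lower. GDF7 (log2 fold change -6.90), GDF6 (-5.16) and BMP2 (-1.95) were lower in TCam-2, as BMP4 and BMP7 were. BMP8A was higher (3.02), although its near-identical copy BMP8B makes both uncertain. Of the other receptors and coreceptors, 4 were higher and 3 lower among 9 tested. The type I receptors BMPR1B (2.05) and ACVR1 (1.43) and the type II receptor BMPR2 (0.93) were higher, like BMPR1A, whereas the coreceptor RGMA (-3.70) and the activin type II receptors ACVR2A (-1.52) and ACVR2B (-1.14) were lower. SMAD1 (0.69) and SMAD5 (0.34), which carry the signal, were higher, and 2 of the 4 SMADs were not called.

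Antagonists divided evenly, with 7 higher and 7 lower among 17 tested. The secreted antagonists SOSTDC1 (log2 fold change 6.12, from 1.48 to 105 CPM) and NBL1 (3.30) were higher in TCam-2. GREM1 (-5.00), CHRDL1 (-4.46, from 38.6 to 1.71 CPM) and FSTL3 (-2.27) were lower, as NOG was. Of the other target genes, 5 of 7 tested were higher and 1 lower. They included TBX3 (6.24), MSX2 (5.28, from 5.54 to 215 CPM) and HEY1 (4.49), all transcription factors, while ATOH8 was lower (-1.02). The E proteins that ID proteins bind were mixed: TCF3 was lower in TCam-2 (-1.64, from 394 to 126 CPM), TCF4 was lower (-0.78) and TCF12 slightly higher (0.21). Over all 4 treatments, 20 of the 46 genes were called higher and 14 lower each time, against 33.5% and 34.2% of the 16045 genes tested in all 4.

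The second question was whether RANKL, OPG or denosumab moved these genes. No member was called in any of the 6 comparisons with vehicle, nor in the 4 comparisons of an inhibitor with RANKL. The background was the same: 0% of genes were called in each of the 10, over 17351 genes tested in NTera2 and 16621 in TCam-2. DESeq2 called 0 members too, while it called 2 genes in NTera2 with denosumab, 1 in TCam-2 with RANKL and 7 in TCam-2 with OPG. NOG was not tested in TCam-2. The 3 treatments of a line share its vehicle libraries, so their values are not independent of each other.

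In NTera2, ID1 and ID3 were the only members to reach an unadjusted p under 0.05, and neither passed the adjusted test. ID1 was at 66.8, 92.0, 61.3 and 86.8 CPM with vehicle and at 55.8, 58.3, 72.8 and 58.1 CPM with RANKL. The groups overlapped through RANKL replicate 3, and ID1 differed by -0.31 on the log2 scale (SE 0.108, unadjusted p = 0.00803, adjusted p = 0.383), with ID1 below vehicle at 3 of 4 passages. With denosumab ID1 was at 53.7, 62.8, 61.4 and 49.5 CPM, again overlapping vehicle, for a log2 fold change of -0.42 (SE 0.109, unadjusted p = 0.000743, adjusted p = 0.321). With OPG it was at 63.1, 68.5, 68.6 and 55.9 CPM (log2 fold change -0.25, unadjusted p = 0.0297, adjusted p = 1). ID3, at 67.4, 78.8, 69.9 and 76.4 CPM with vehicle, was at 56.5, 57.2, 64.1 and 56.6 CPM with RANKL. These 2 groups did not overlap, and ID3 differed by -0.30 (SE 0.0905, unadjusted p = 0.00234, adjusted p = 0.368). With denosumab ID3 was at 47.7, 65.1, 63.9 and 59.0 CPM, also below all vehicle libraries, and differed by -0.30 (SE 0.0913, unadjusted p = 0.00305, adjusted p = 0.416). With OPG it overlapped vehicle at 63.9, 65.0, 79.1 and 57.9 CPM (-0.13, adjusted p = 1).

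These values moved with the gene filter and with a joint correction for GC content and length. With no filter on low counts the edgeR fit called ID1 and ID3 with RANKL (adjusted p = 0.024 and 0.0336) and with denosumab (0.000186 and 0.0282). That fit called 0.483% of 36435 genes with RANKL and 0.65% with denosumab, where the filtered fit called none. In the filtered fit without vehicle replicate 3, ID1 was called with denosumab (adjusted p = 0.0457). Over the 8 omissions of 1 library, the filtered fits with denosumab called 0 to 29 genes. The GC and length correction, added after the values were seen, moved ID1 to -0.19 with RANKL and -0.31 with denosumab and ID3 to -0.20 and -0.21. The GC content of ID1 (58.6%) is above that of 81.4% of the NTera2 genes tested and that of ID3 (57.2%) above 77.0%, while ID1 (1233 bases) and ID3 (1496 bases) are shorter than the median of these genes (4748 bases). The shares of GC content and length in the move were not separated. The 4 embryonal carcinoma markers summed to 1446 to 1673 CPM with vehicle and 1254 to 1512 with RANKL. They summed to 1345 to 1546 with OPG and 1275 to 1529 with denosumab, and each treated range overlapped that of vehicle. Of these markers 0 were called with any treatment. Their log2 fold changes were -0.22 to 0.05 with RANKL, -0.15 to -0.02 with OPG and -0.24 to -0.01 with denosumab. The part of these markers in the ID values was not tested.

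The other 8 genes of NTera2 differed from vehicle by -0.18 to 0.15 on the log2 scale, apart from NOG with denosumab, which was at 3.05, 3.29, 2.16 and 2.03 CPM (log2 fold change -0.41, 95% interval -0.95 to 0.13, adjusted p = 0.824). At an unadjusted p under 0.05 stood 2 of 10 genes with RANKL, 1 with OPG and 2 with denosumab, against 10.3%, 1.68% and 7.25% of all genes. Groups did not overlap for 1, 0 and 1 of the 10 genes, against 3.89%, 2.05% and 3.46% of all genes.

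In TCam-2 the lowest log2 fold change with each treatment was that of SMAD6, the inhibitor inside the cell. SMAD6 was at 14.5, 13.3, 11.9 and 15.8 CPM with vehicle, at 8.08, 9.60, 8.09 and 11.3 with RANKL and at 11.7, 4.09, 9.65 and 9.53 with OPG. Both treated groups lay wholly below vehicle, by -0.61 with RANKL (SE 0.203, unadjusted p = 0.00600, adjusted p = 0.557) and by -0.69 with OPG (SE 0.207, unadjusted p = 0.00263, adjusted p = 0.488). With denosumab SMAD6 was at 12.3, 11.4, 9.76 and 9.70 CPM, overlapping vehicle (-0.39, adjusted p = 0.731). None of the 3 passed the test, and with no filter on low counts SMAD6 was called with OPG (adjusted p = 0.0412), as were 0.152% of 35493 genes. Without OPG replicate 2 the value with OPG was -0.45 (adjusted p = 0.748).

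BMP4 in TCam-2 was at 5.23, 9.53, 5.95 and 8.36 CPM with vehicle and at 3.90 to 6.64 CPM in the 12 treated libraries. Only vehicle replicates 2 and 4 stood above all treated libraries, and the log2 fold changes were -0.46 with RANKL (adjusted p = 0.557), -0.43 with OPG (adjusted p = 0.573) and -0.38 with denosumab (adjusted p = 0.735). Without vehicle replicate 2 they were -0.29, -0.26 and -0.21. BMPR1A was at 110 to 145 CPM with vehicle and 126 to 157 with RANKL, a log2 fold change of 0.18 (adjusted p = 0.559). ID1 was at 393, 458, 306 and 562 CPM with vehicle and at 367, 283, 294 and 393 CPM with OPG. Each OPG library was below the vehicle library of its passage, but the groups overlapped, with a log2 fold change of -0.38 (SE 0.170, unadjusted p = 0.0396, adjusted p = 0.563). With no filter on low counts this value was called (adjusted p = 0.000339), and the GC and length correction brought it to -0.20. Without vehicle replicate 4 it was -0.23. ID1 differed by -0.15 with RANKL and -0.02 with denosumab, and ID3 by -0.20, -0.13 and -0.13 with RANKL, OPG and denosumab. Without the 2 RANKL libraries of low RNA integrity, the values with RANKL were -0.81 for SMAD6, -0.22 for BMP4, 0.22 for BMPR1A, -0.32 for ID1 and -0.31 for ID3, and none was called. At an unadjusted p under 0.05 stood 3, 3 and 0 of the 9 genes tested, against 8.92%, 8.68% and 6.56% of all genes. Groups did not overlap for 1, 1 and 0 genes, against 2.76%, 2.92% and 3.44%.

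**Figure D3:**
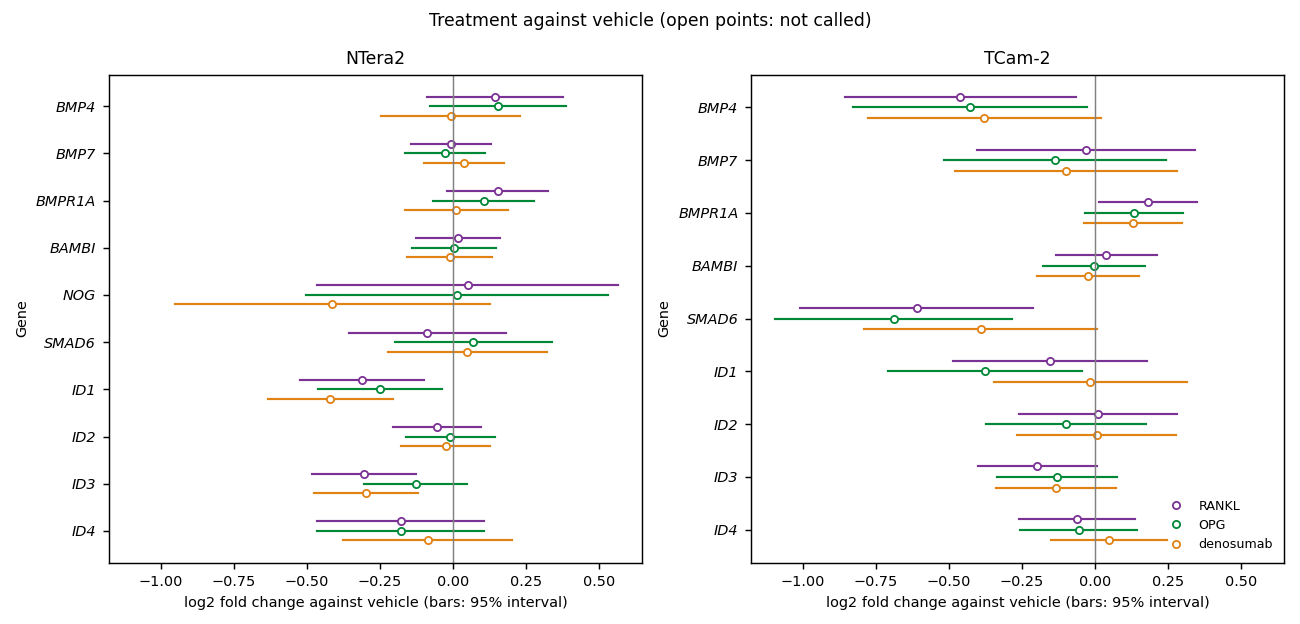
Log2 fold change of each treatment over vehicle (x axis) with 95% intervals, for 10 genes in NTera2 (left) and 9 in TCam-2 (right). All points are open because none was called; in NTera2 the intervals lie wholly below 0 for ID1 with each treatment and for ID3 with RANKL and denosumab. In TCam-2 they do so for SMAD6 and BMP4 with RANKL and OPG and for ID1 with OPG, and that of BMPR1A with RANKL lies above 0.

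OPG and denosumab were also set against RANKL. In NTera2 the 10 genes differed by -0.05 to 0.18 with OPG and by -0.46 (NOG) to 0.14 with denosumab. In TCam-2 the 9 tested genes differed by -0.22 to 0.07 with OPG and by -0.07 to 0.22 with denosumab. No member reached an unadjusted p under 0.05 in these 4 comparisons, against 5.01% and 4.36% of all genes for OPG and denosumab in NTera2 and 5.14% and 0.933% in TCam-2. The groups overlapped for every member, while 2.73%, 1.99%, 2.58% and 1.74% of all genes had groups that did not, in the same order. ID3 in NTera2 was at 66.5 ± 8.97 CPM with OPG and 58.6 ± 3.67 with RANKL (log2 fold change 0.18, SE 0.0906, adjusted p = 0.913), higher with OPG at 4 of 4 passages.

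Whether the lines responded differently was tested as the interaction of line and treatment over all 32 libraries. No member was called, and 0% of 19216 genes were. BMP4 had interactions of -0.56 with RANKL (adjusted p = 0.931) and -0.55 with OPG (adjusted p = 0.929), its mean being below vehicle in TCam-2 and above it in NTera2. Without the 2 libraries of low RNA integrity, that of BMP4 with RANKL was -0.31. SMAD6 had -0.73 with OPG (unadjusted p = 0.00715, adjusted p = 0.892). ID1 had 0.20, -0.10 and 0.45 with RANKL, OPG and denosumab, and ID3 0.15, 0.02 and 0.20. The interaction of ID1 with denosumab (adjusted p = 0.95) was called with no filter on low counts (0.48, adjusted p = 0.00815), in a fit that called 0.0795% of 40267 genes. At an unadjusted p under 0.05 stood 1, 2 and 0 of 10 genes, against 5.22%, 5.2% and 4.78% of all genes. The 10 include NOG, which passed the filter through NTera2 only. With 0 or 1 count in each TCam-2 group, its interactions (1.48 with RANKL and 1.67 with OPG) say nothing about a treatment.

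Members were also compared between the passages of a line. Each passage was 1 experiment, so passage and experiment cannot be told apart. The 4 libraries of a passage, 1 per treatment, were compared in a model with treatment as a term. In TCam-2, 3 of the 9 genes tested were called, against 1.77% of 16621 genes: BAMBI, ID2 and ID1. All 3 were lowest at passage 121 and highest at passage 122. In NTera2, 0 of 10 were called by edgeR, against 8.28% of 17351 genes. At an unadjusted p under 0.05 were 3 of 10, against 24.2% of all genes. DESeq2 called 2 there, BMPR1A (adjusted p = 0.0376) and BAMBI (0.0215). The share of all genes that DESeq2 called between passages of either line is not given here.

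BAMBI showed the differences between TCam-2 passages most evenly. It was at 93.0, 99.8, 99.2 and 94.2 CPM at passage 118 of TCam-2 in the order vehicle, RANKL, OPG and denosumab, at 94.3, 100, 95.8 and 97.2 at passage 120, at 85.5, 88.7, 80.6 and 85.7 at passage 121 and at 105, 107, 105 and 102 at passage 122. Every library of passage 121 was below, and every library of passage 122 above, all others. The difference between the lowest and highest passage was 0.32 on the log2 scale (adjusted p = 0.0206). ID2 averaged 47.3 ± 4.47, 42.3 ± 4.96, 37.7 ± 4.29 and 52.1 ± 2.76 CPM at passages 118, 120, 121 and 122, a span of 0.49 (adjusted p = 0.0251). ID1 averaged 410 ± 58.3, 412 ± 89.9, 319 ± 27.3 and 451 ± 79.1 CPM, a span of 0.52 (adjusted p = 0.041). The ID1 libraries of passages 118, 120 and 122 overlapped widely. ID3 (171 ± 4.13 CPM at passage 121, 212 ± 32.6 at passage 122) and ID4 (40.1 ± 1.54 and 49.6 ± 1.84) had the same lowest and highest passage and were not called (adjusted p = 0.0988 and 0.0961), while DESeq2 called BAMBI, ID2, ID3 and ID4 and not ID1.

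**Figure D4:**
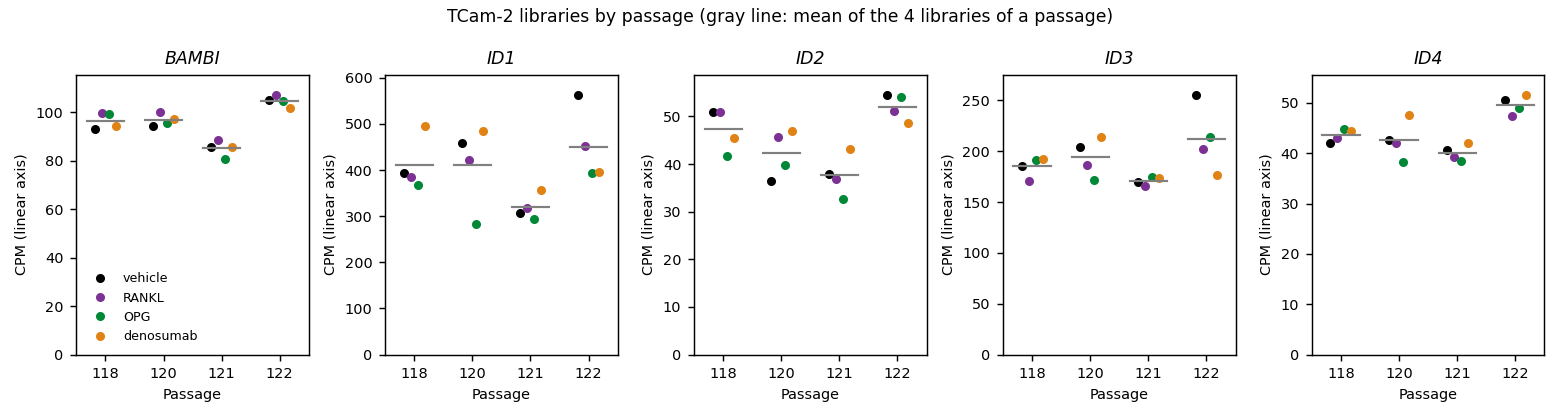
BAMBI and the 4 ID genes in CPM (linear axes from 0) in each TCam-2 library by passage, coloured by treatment, with the mean of 4 libraries as a gray line. Passage 121 has the lowest mean and passage 122 the highest for each of the 5 genes.

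The TCam-2 calls rested on few libraries. All 3 held without denosumab replicate 1, 2 or 4 or OPG replicate 2, and each of the other 12 omissions of 1 library lost at least 1 (highest adjusted p = 0.182), with 0 left without RANKL replicate 1 or 3, OPG replicate 1 or 4 or vehicle replicate 3. None was called without the 2 libraries of low RNA integrity, the RANKL group or the vehicle group. Markers moved with passage too: 3 of 5 seminoma markers were called (TFAP2C, PRDM1 and PDPN), with summed levels of 1970 to 2023, 2013 to 2070, 2029 to 2174 and 1857 to 1990 CPM at passages 118, 120, 121 and 122. Of the fibroblast markers, COL3A1 was called (adjusted p = 0.00302) and the sums were 257 to 298, 281 to 307, 276 to 319 and 253 to 286 CPM. The part of either in the passage values was not tested. Between NTera2 passages, 2 of 4 embryonal carcinoma markers were called, with summed levels of 1512 to 1673 CPM at passage 29 and 1254 to 1446 at passage 31. Of the wider pathway, SKIL (adjusted p = 0.000982) and FST (0.0398) were called in NTera2 and FST (0.0136) in TCam-2; SKIL encodes a SMAD corepressor and FST the antagonist follistatin.

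ID1 and ID3 followed each other between libraries of a line. After the treatment means were subtracted, the Pearson correlation of their log2 CPM over the 16 TCam-2 libraries was 0.93 (Spearman 0.95), and it was 0.90 without the 2 libraries farthest from the median. It was 0.95 with passage means subtracted as well and 0.93 without the 2 libraries of low RNA integrity. Among the 9441 TCam-2 genes of at least 10 CPM, ID3 was the 4th most like ID1 and ID1 the 5th most like ID3. With passage removed, the likeness of ID1 to BAMBI went from 0.77 to 0.18 and that to ID2 from 0.62 to 0.04, while that to SMAD6 went from 0.59 to 0.78, to BMP7 from 0.03 to 0.59 and to BMPR1A from -0.35 to -0.73. In NTera2 the likeness of ID1 to BAMBI went from 0.31 to 0.53. These libraries share passages, treatments and depth, and the values describe them only.

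In NTera2 the correlation of ID1 and ID3 was 0.67 (Spearman 0.76) over 16 libraries, 0.63 without the 2 farthest and 0.61 with passage means subtracted. Of 9755 genes, ID3 was the 949th most like ID1. The genes most like ID1 in NTera2 were R3HDM4 (0.95), APRT (0.94), ZC3H18 (0.93), GPX1 (0.93) and VIM (0.93), and among those most like ID3 were NUMBL (0.96), PAK4 (0.95), SH3GL1 (0.94) and NOC4L (0.94). In TCam-2 they included SAMD11 (0.96), COL27A1 (0.95), MRPL4 (0.94) and ID3 (0.93) for ID1, and TUBB6 (0.95), MRPL4 (0.95), SAMD11 (0.94), AP1M1 (0.94) and ID1 for ID3. Spearman values were 0.87 to 0.96 over these pairs.

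**Figure D5:**
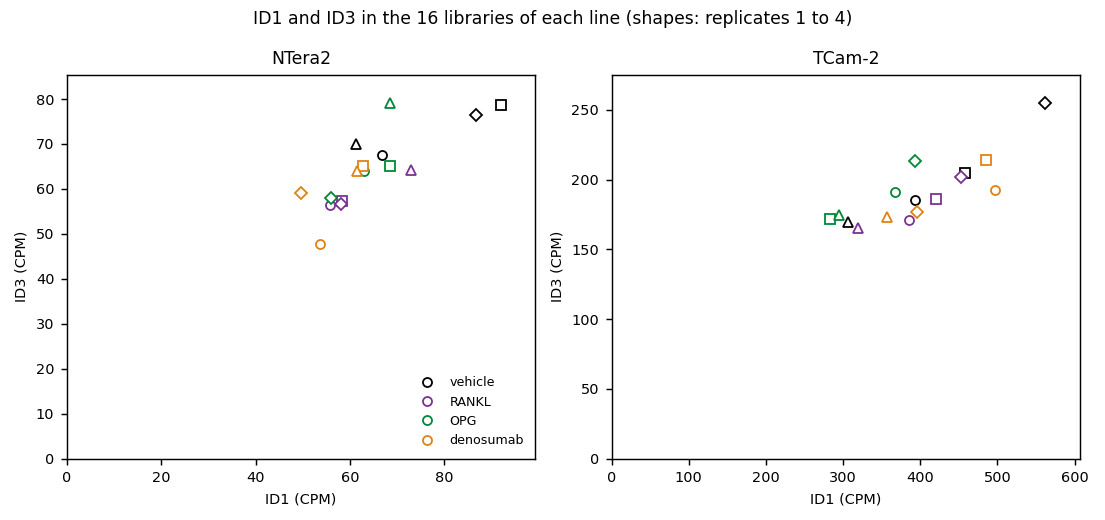
ID1 (x axis) against ID3 (y axis), both in CPM on linear axes from 0, in the 16 libraries of NTera2 (left) and TCam-2 (right), coloured by treatment with circles, squares, triangles and diamonds for replicates 1 to 4. The TCam-2 libraries lie along a line with vehicle replicate 4 at its upper end (562 and 255 CPM).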

How the data were processed

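Poly(A) RNA of 32 libraries was sequenced from stranded libraries as paired 52-bp reads, per the labels' protocols. Per the submitters' processing notes, the authors used bcl2fastq 2.20.0, STAR 2.7.9a and featureCounts 1.6.2 on GRCh38/hg38. The deposited values are raw read counts per gene, and 0 sample columns were left unmatched. The annotation release and strand setting are not given in the sources used here. Replicates never agreed within counting noise (chi-square per degree of freedom 2.70 to 19.6 for a pair).

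Counts were tested by the robust quasi-likelihood F test of edgeR 4.0.16 under R 4.3.3, after filterByExpr and TMM scaling, with Benjamini-Hochberg adjustment over all genes tested and a threshold of 0.05. The SE is the size of the log2 fold change over the square root of F, and 95% intervals are normal intervals from it. CPM use TMM factors over 32 libraries, errors are SD (n = 4 unless given), and counting intervals and floors cover counting error only. Treatments were compared in the 16 libraries of a line, lines in the 8 libraries of a treatment, interactions in 32 libraries and passages in 16 with treatment as a term, 19 comparisons in all. DESeq2 1.42.0, other size factors, no filter on low counts, a replicate block, other library sets, each library left out and a GC and length correction (loess of R 4.3.3) were alternatives. The statistics were tested on simulated data.

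Named were all 10 members, the 3 called genes of each pathway list with the largest fold change in either direction between the vehicle groups, the 3 called pathway genes of smallest p between passages, every called pathway gene of a treatment test (there were 0), and the 5 genes of at least 10 CPM most alike to ID1 and ID3 by Pearson correlation of log2 CPM (prior count 2). Of the genes this rule names, 3 are not reported here. Members and lists were chosen with earlier results of these data known. Members given alternatives of their own in the treatment and interaction tests were ID1, ID3 and those at an unadjusted p under 0.05, chosen after their values were seen.

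The labels give the 4 libraries of a replicate number in a line 1 passage, so in treatment and interaction tests the replicate block pairs them within a line. Their deviations from group means correlated, by passage, at a median r of 0.04 to 0.33, with single pairs from -0.22 to 0.60. Between lines the numbers mark different passages. The block of the line comparisons joined libraries by replicate number only, a pairing that the labels do not give.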

Additional observations from a re-analysis of the deposited data

Results flagged for a closer look

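Of 76 groups of 4 libraries tested for a library far from the others, 3 were flagged, and chance flags about 1 group in 20. ID1 in NTera2 RANKL replicate 3 was at 72.8 CPM, with the others at 55.8 to 58.3. ID3 in the same library was at 64.1 CPM, with the others at 56.5 to 57.2. BMPR1A in NTera2 denosumab replicate 2 was at 33.4 CPM, with the others at 40.2 to 41.5.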

How the results depend on the processing

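Of the alternatives to each count of called members, most stayed within 1.5 times the count given. With no filter on low counts, 2 members were called in NTera2 with RANKL, 2 with denosumab, 2 in TCam-2 with OPG and 1 in the line-by-denosumab interaction, where the report's fit called 0; these fits called 176, 237, 54 and 32 genes in all, and the cause was not tested. Leaving out 1 library gave 0 to 1 members in NTera2 with denosumab, 0 to 2 between NTera2 passages and 0 to 4 between TCam-2 passages. Over the same omissions the genes called in all were 0 to 29, 538 to 2409 and 90 to 845. Between NTera2 passages DESeq2 called 2, and without the vehicle group 1 was called. Between TCam-2 passages 1 was called without the OPG group, and 0 without the RANKL group, the vehicle group or the 2 libraries of low RNA integrity, with fewer libraries in each. With the replicate block no member was called for a treatment or interaction: ID3 in NTera2 had an adjusted p of 0.0627 with RANKL and 0.0828 with denosumab, and ID1 0.159 and 0.107. The block raised the genes called from 0 to 30 in NTera2 with denosumab, to 2 in TCam-2 with denosumab and to 1 in the line-by-denosumab interaction, and changed no other call of a member. Values near 0 changed sign. In TCam-2 with RANKL, ID1 was 0.0149 with the GC and length correction and 0.0196 with the block added. In TCam-2 with OPG, ID3 was 0.0116 and 0.00935. In TCam-2 with denosumab, ID1 was 0.0986 and 0.111, 0.00856 with the block, and -0.153 to 0.136 over omissions of 1 library. Between lines with RANKL, ID2 was -0.0265 with DESeq2, -0.0327 with no filter, -0.00549 with the block, -0.0265 with RLE size factors, -0.0762 without the 2 libraries of low RNA integrity and -0.0771 to 0.0730 over omissions. In the line-by-OPG interaction, ID1 ran from -0.229 to 0.0597 and ID3 from -0.0565 to 0.154 over omissions. Depth limits NOG most, with 863 counts in 16 NTera2 libraries and 2 in TCam-2.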
